A study of Mus musculus with 2 samples.

Results

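Ly6c-low patrolling monocytes were picked out of 2 droplet libraries of mouse spleen cells by the transcripts they carried. A barcode was taken as a member when it held 500 to 5000 detected genes, under 15% mitochondrial transcripts and under 0.5% transcripts of the red pulp macrophage genes Vcam1 and Spic, and showed at least 4 of the 9 genes Ace, Treml4, Spn, S1pr5, Eno3, Cd300e, Adgre4, Ceacam1 and Smpdl3b, at most 2 of the 6 classical monocyte genes Ly6c2, Vcan, F13a1, Fn1, Ccr2 and Chil3, and at most 1 of the 4 dendritic cell genes Ccr7, Flt3, Cd209a and Clec4a4. Of 39586 barcodes, 31699 passed the limits on genes and mitochondrial transcripts, and 2074 of these were members, 735 in the wild-type-labelled library and 1339 in the SCD-labelled library. Each library came from the spleen of 1 untreated mouse of mixed genetic background, aged 12 to 16 weeks, after lysis of red blood cells and capture on beads coated with an antibody to F4/80, a surface protein of macrophages that Ly6c-low monocytes also carry. The mouse labelled wild-type was a non-sickling control, homozygous for the α-globin deletion Hbatm1Paz, heterozygous for the β-globin deletion Hbbtm1Tow and hemizygous for the human transgene Tg(HBA-HBBs)41Paz. The mouse labelled SCD, the sickle cell disease model, was homozygous for all 3. By these labels both mice lack mouse α-globin genes and carry the human sickle transgene, and they differ in the dose of the transgene and of Hbbtm1Tow. Transcripts were counted by their unique molecular identifiers (UMIs) near the 3′ end.

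Ly6c-low monocytes are the smaller of the main monocyte populations of mouse blood and spleen. They arise from Ly6c-high classical monocytes, depend on the nuclear receptor NR4A1, and crawl along the endothelium of small vessels, held by the integrin LFA-1 and guided by the fractalkine receptor CX3CR1. In the spleen they sit beside red pulp macrophages, which clear aged erythrocytes and recycle heme iron.

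Some properties of the libraries bear on every value below. The β-globin genes went against the labels: in Ly6c-low monocytes Hbb-bs (chr7:103826534-103828096, GRCm38, minus strand) was at 48.0 CPM, the UMIs of a gene scaled to the summed UMIs of the cells as counts per 1000000, in the wild-type-labelled library and 7048 CPM in the SCD-labelled library, although by its label the mouse labelled SCD lacks the gene on both chromosomes. B cells of the same libraries held 10.1 and 1488 CPM of Hbb-bs. Hba-a1, an α-globin gene that by the labels both mice lack, was at 9632 CPM in members of the wild-type-labelled library and 2317 CPM in those of the SCD-labelled library, so it went against both labels. The groups are therefore called by their library labels throughout. Every direction below holds for the labels as given and would be the opposite if they were exchanged, which was not tested. Paired values are given with the wild-type-labelled library first. With 1 mouse per label no test between conditions was possible, and the 95% intervals cover counting error only. The libraries shared 107 barcodes, 65 of them among kept barcodes and 0 among members. The deposited totals were 145953464 and 73986356 UMIs, and the members had a median of 5499 and 4377 UMIs.

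A further difference lay in transcripts of other lineages. At least 2 erythroid markers were found in 51.2% of the members of the wild-type-labelled library and in 8.74% of those of the SCD-labelled library, against 33.4% and 5.57% of B cells. At least 2 neutrophil markers were found in 16.9% and 1.12% of members, and at least 2 B cell markers in 8.03% and 10.0%. T cell, NK cell and platelet markers were each paired in under 1% of members (0.544% and 0.299%, 0% and 0.149%, 0.272% and 0%). In the wild-type-labelled library 18 of the 735 members held 22017 of the 22271 UMIs of S100a8 and S100a9. For this reason the gene comparisons between the libraries were also made on members that carried at most 1 marker of each of these 6 lineages, called single-lineage Ly6c-low monocytes: 290 and 1089 cells, with a median of 3381 and 4031 UMIs. The name covers these 6 lineages only, and macrophage and dendritic cell markers were not limited further than by the rule. The macrophage gene C1qa was found in 79.3% and 57.2% of these cells. B cells, chosen as kept barcodes with at least 3 of 4 B cell genes, Cd79a, Cd79b and Ms4a1 among them, and at most 1 of the 9 Ly6c-low genes, served as the reference for free RNA, and their levels between libraries are given for those that passed the same limit on other lineages. Whether a barcode with markers of a second lineage held more than 1 cell was not tested.

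Summed over all members of a library, the genes that the rule did not use fit the name. Nr4a1 (chr15:101254269-101274795, plus strand), the defining transcription factor, was at 264 and 547 CPM in Ly6c-low monocytes, at 44.9 and 213 CPM in classical monocytes, chosen as kept barcodes with at least 4 of the 6 classical genes and at most 2 of the 9, and at 20.4 and 39.1 CPM in all B cells. Itgal, the α chain of LFA-1, was at 811 and 1598 CPM in members, 246 and 784 CPM in classical monocytes and 104.5 and 139.5 CPM in all B cells. Fcgr4, the activating Fc receptor that distinguishes this subset, was at 259 and 404 CPM against 37.2 and 52.7 CPM in classical monocytes and 123 and 253 CPM in macrophages. Each of these 3 genes was higher in members than in classical monocytes in both libraries. Cx3cr1, which classical monocytes also express, was at 410 and 638 CPM against 374 and 634 CPM, so it set members apart from all B cells, at 15.7 and 13.6 CPM, and hardly from classical monocytes. In single-lineage cells all 4 were closer between the libraries, with Nr4a1 at 470.1 (432 to 511) and 608 (587 to 630.0) CPM, Itgal at 1551 and 1802, Fcgr4 at 430 and 458, and Cx3cr1 at 746 and 715 CPM. Of 14 Ly6c-low markers outside the rule, 13 had at least 100 UMIs in single-lineage members and 11 of these were at 2 times or more the level of B cells in the library where they were higher; the exceptions were Pou2f2 and Stap1, which B cells also express. Apoc2, the one not counted, had 1 UMI in these cells.

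**Figure D1:**
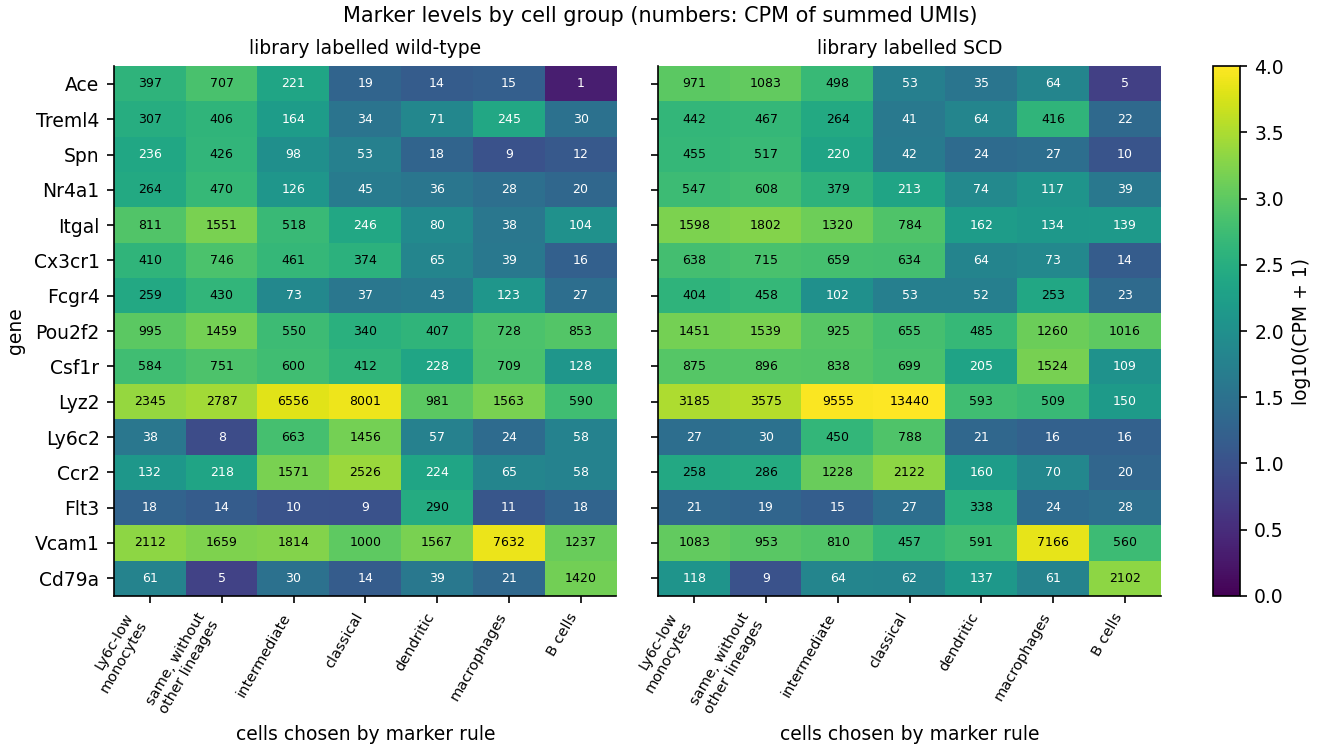
Levels of 15 genes (rows) in 7 groups of cells chosen by marker rules (columns), for each library in its own panel. Colour gives log10(CPM + 1) and the number in each cell the CPM of summed UMIs; Ace, Spn, Nr4a1 and Itgal are highest in the Ly6c-low monocytes of both libraries, Lyz2 and Ccr2 in classical monocytes and Vcam1 in macrophages.

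The genes that the rule used are given as a description. Ace, angiotensin-converting enzyme (chr11:105967945-105989964, plus strand), was at 397 and 971 CPM in members and 18.8 and 52.7 CPM in classical monocytes. Spn, the sialomucin CD43 (chr7:127132232-127137823, minus strand), was at 236 and 455 CPM against 53.3 and 42.5 CPM. Treml4 (chr17:48264295-48275360, plus strand), a receptor that binds dying cells, was at 307 and 442 CPM against 34.0 and 41.0 CPM, but also at 245 and 416.5 CPM in red pulp macrophages, the kept barcodes with at least 0.5% Vcam1 and Spic transcripts. S1pr5, the sphingosine phosphate receptor by which these monocytes leave the bone marrow, was at 60.3 and 129.8 CPM, against 1.83 and 8.98 CPM in macrophages. Vcam1 itself, limited by the rule, still stood at 2112 and 1083 CPM in members and 1237 and 559.9 CPM in all B cells, a cell type in which it is not a marker.

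Beyond the rule, 43 of 8956 genes with at least 100 member UMIs (0.48%) were at 4 times or more the level of all other kept barcodes in both libraries, and 38 of them were outside the rule. Among the 20 leading ones were Tgfbr3, a co-receptor for TGF-β, at 28.6 and 40.3 CPM, Scnn1a, a subunit of the epithelial sodium channel, at 42.5 and 98.95 CPM, and L1cam, an adhesion molecule, at 61.5 and 120.6 CPM. The signalling genes Dgkh, Tiam2 and Rps6ka2, the cytokine inhibitor Socs3, the lactate transporter Slc16a3, the growth factor gene Vegfc and the gap junction gene Gjb2 also belonged to them. A group of innate receptors stood beside them: Trem1 at 15.1 and 10.8 CPM, Trem3 at 62.3 and 77.1 CPM, Clec4e, which senses dead cells and mycobacterial lipid, at 125 and 51.6 CPM, and the complement C5a receptor gene C5ar1 at 33.7 and 28.4 CPM. In B cells C5ar1 had no UMI and Clec4e was at 1.56 and 1.65 CPM. Classical monocytes came nearer for some of the 20, with Clec4e at 40.9 and 38.1 CPM. They held Slc16a3 at 28.1 and 26.9 CPM, against 53.2 and 60.3 in members, and Tiam2 at 18.3 and 14.6, against 23.8 and 72.7. For others they lay far lower, with Tgfbr3 at 0.305 and 1.46 CPM and Scnn1a at 1.68 and 6.84. Rpl3l, Dnah12, Nrarp, Cyp2ab1, Ip6k3 and Ly6i completed the 20. Because the rule chose these cells, the list describes them and tests nothing.

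Members made up 3.78% (3.52 to 4.06%) of kept barcodes in the wild-type-labelled library and 10.9% (10.4 to 11.5%) in the SCD-labelled library, a ratio of 2.88 (2.64 to 3.14). The ratio depended on the denominator, since macrophages made up 44.0% and 21.4% of the kept barcodes. Without macrophages the shares of Ly6c-low monocytes were 6.76% and 13.9%, a ratio of 2.05 (1.88 to 2.23). Single-lineage members were 4.33% and 13.9% of the kept barcodes that passed the same limit, a ratio of 3.21. Of all kept barcodes they were 1.49% and 8.87%, a ratio of 5.94 (5.23 to 6.75). That limit was passed by 34.5% and 63.8% of kept barcodes, so the last ratio, with the limit on 1 side only, also holds this difference. The limits of the rule also mattered. The shares of members were 6.59% and 14.2% with at least 3 of the 9 markers, and 2.21% and 9.16% with Vcam1 and Spic under 0.25%. Each library was a single capture on F4/80 beads, so the yield of the capture and the share in the spleen cannot be told apart.

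Set against other cells of the same capture, the members gave different pictures. There were 78.9 members per 100 classical monocytes in the wild-type-labelled library and 399.7 per 100 in the SCD-labelled library, and 8.59 and 51.0 per 100 macrophages. Per 100 dendritic cells, kept barcodes with at least 2 of the 4 dendritic cell genes, there were 80.9 and 71.4 members, per 100 B cells 105 and 81.0, and per 100 cells intermediate between both monocyte types 196 and 181. Counted in single-lineage cells on both sides, there were 61.1 and 374 members per 100 classical monocytes, 64.3 and 71.3 per 100 dendritic cells and 63.5 and 70.0 per 100 B cells. Relative to classical monocytes Ly6c-low monocytes were more frequent in the SCD-labelled library by either count. Relative to dendritic cells and B cells they were less frequent there among all cells and slightly more frequent among single-lineage cells. These differences were small and no interval was computed, so whether the turn exceeds counting error was not tested. Of the 3 monocyte groups together, members were 36.0% and 55.5%, intermediate cells, with at least 4 of the 9 genes and 3 or more of the classical ones, 18.4% and 30.7%, and classical monocytes 45.6% and 13.9%. Classical monocytes were 4.80% and 2.73% of kept barcodes, and those of a single lineage 2.45% and 2.37% of the same barcodes.

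**Figure D2:**
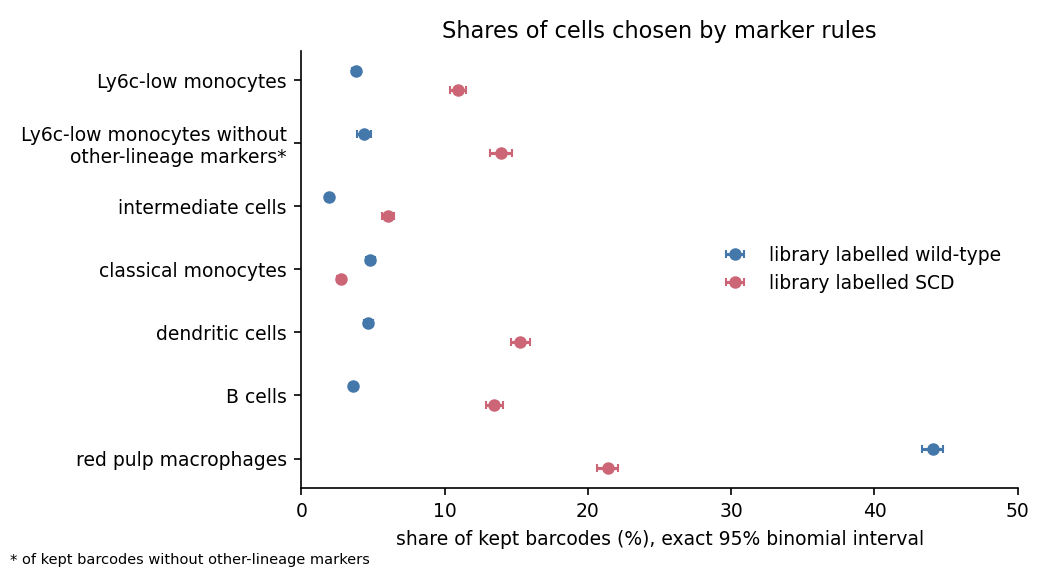
Share of kept barcodes (horizontal axis, percent) for cells chosen by marker rules (rows), with exact 95% binomial intervals, in the wild-type-labelled library (blue) and the SCD-labelled library (red). Ly6c-low monocytes, intermediate cells, dendritic cells and B cells have higher shares in the SCD-labelled library, classical monocytes and red pulp macrophages lower ones.

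Membership was a point on a slope. Nr4a1, outside the rule, was at 36.7 and 101 CPM in cells that met every other limit but showed 3 of the 9 markers (545 and 410 cells), just outside the threshold, and at 95.2 and 214 CPM in members with 4 (228 and 243 cells), just inside. It stood at 557 and 704 CPM in the 24 and 122 members with all 9. Itgal went from 104 and 257 CPM at 3 markers to 294 and 681 at 4 and to 1618 and 2193 at 9. Members with 4 markers made up 31.0% and 18.1% of all members, which places more of the wild-type-labelled library near the limit. On the side of the classical genes, Fcgr4 stood at 303 and 519 CPM in members with none of the 6, at 134 and 219 CPM with 2, and at 67.4 and 105 CPM in cells outside the limit that showed all 6. Nr4a1 over the same range went from 293 and 592 CPM to 76.4 and 399 CPM. At each number of classical genes, Nr4a1 was higher in the SCD-labelled library. A gene counted as detected with 1 UMI, so these numbers also depend on depth, which changed along both slopes. The median was 7466 and 5262.5 UMIs at 3 markers, 7874.5 and 5230 at 4 and 6063 and 5181.5 at 9. It was 4513 and 3726 UMIs with none of the classical genes and 11851 and 7327 with all 6. The part of depth and of mixed barcodes in the slopes was not tested. On the side of the macrophage genes, 41.5% of the members labelled wild-type but 16.0% of those labelled SCD lay between 0.25% and 0.5% Vcam1 and Spic transcripts, and 361 and 274 further cells lay between 0.5% and 1%.

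**Figure D3:**
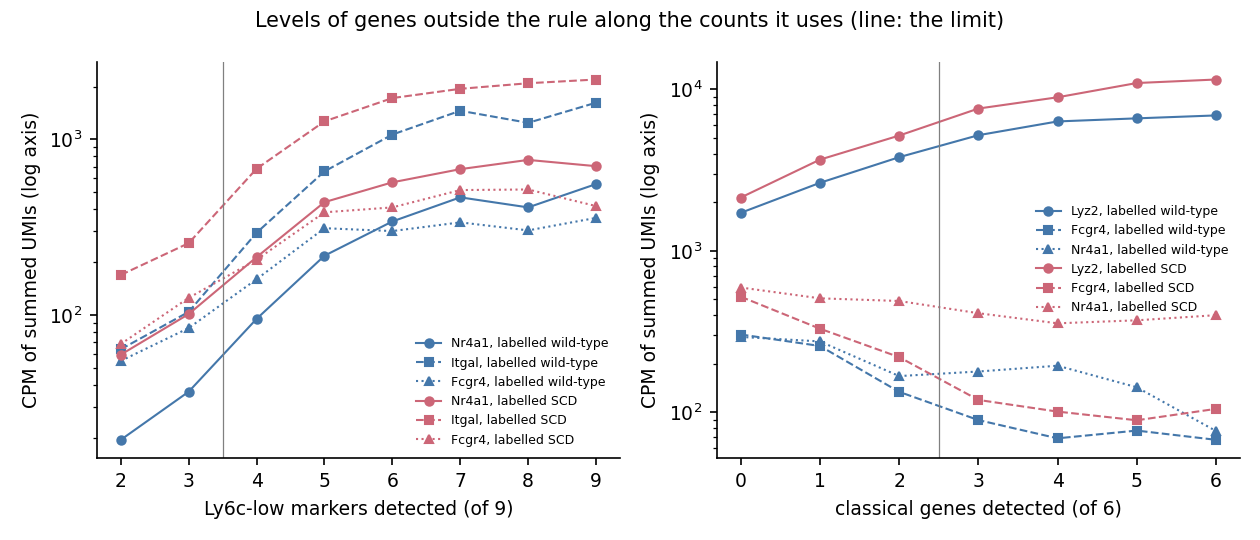
CPM of summed UMIs (logarithmic vertical axes) against the number of the 9 Ly6c-low markers detected (left) and of the 6 classical genes detected (right), in the wild-type-labelled library (blue) and the SCD-labelled library (red), with a vertical line at the limit of the rule. Nr4a1, Itgal and Fcgr4 are higher at 9 markers than at 2 in both libraries, and Lyz2 is higher and Fcgr4 lower where all 6 classical genes are found than where none is.

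Between the libraries, 339 of 8956 genes (3.79%) were at least 2-fold higher and 683 (7.63%) at least 2-fold lower in Ly6c-low monocytes of the SCD-labelled library, with a median log2 ratio of SCD over wild-type of 0.10. In single-lineage cells these counts were 146 of 7102 genes (2.06%) and 128 (1.8%), with a median of 0.06. The same count in single-lineage classical monocytes gave 155 higher and 202 lower of 6169 genes, and in B cells 76 and 138 of 7674. Many of the lowest genes in all members were those of neutrophils and their precursors, with S100a8 at 2107 and 103 CPM, S100a9 at 2313 and 82.4, Ngp at 1599 and 65.7, Ltf at 447 and 10.5, Lcn2 at 312 and 8.79, Elane at 59.5 and 0.72, Mpo at 49.4 and 1.15 and Prtn3 at 30.2 and 0.864. In single-lineage members S100a8 was at 20.3 and 0.397 CPM, on 24 and 2 UMIs, and Elane had none in either library. S100a8 is one of the neutrophil markers by which these cells were limited, so its level in them follows in part from that choice. Of the cell cycle genes, 12 of 15 were at least 2-fold lower in all members (median -1.89), among them Mki67 at 597 and 75.04 CPM. In single-lineage members 0 of 10 were (median 0.19), and Mki67 was at 58.3 and 40.4 CPM. The comparisons that follow are therefore given for single-lineage cells, against a background of 2.06% higher and 1.8% lower. Since the SCD-labelled library holds more of these cells, a gene could have reached 100 UMIs only through the library where it was higher. Counts are therefore also given for the 6679 genes that would reach 100 UMIs if both libraries stood at the level of the lower one, of which 66 (0.988%) were higher and 110 (1.65%) lower. The 9 cell cycle genes among them had a median of 0.13.

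**Figure D4:**
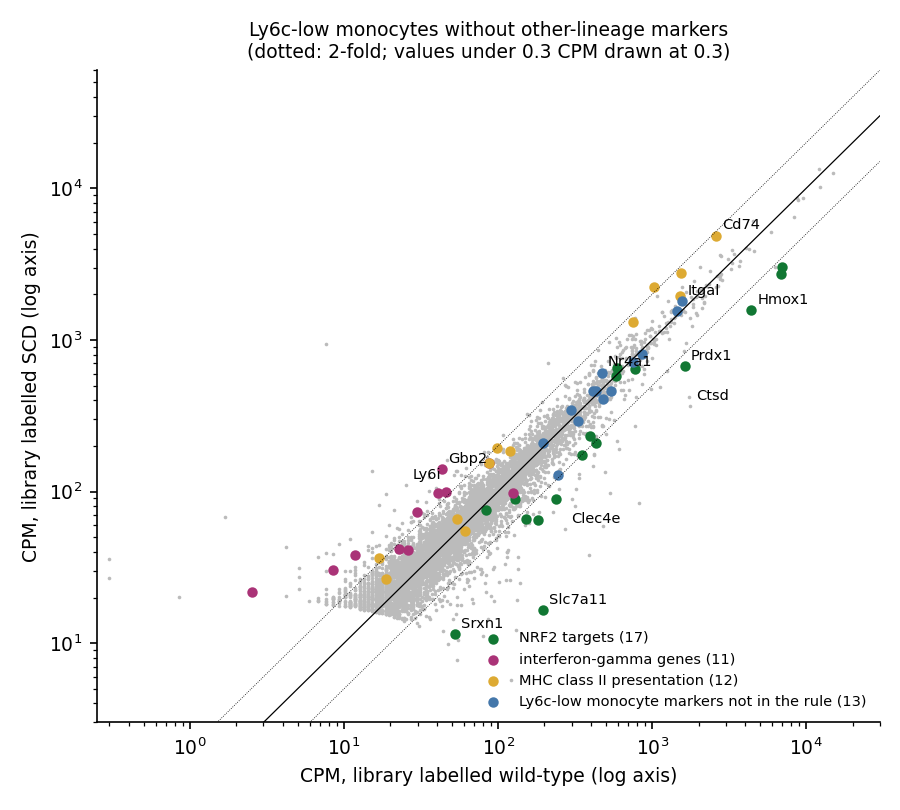
CPM of each gene with at least 100 UMIs in single-lineage Ly6c-low monocytes of the wild-type-labelled library (horizontal, log axis) and the SCD-labelled library (vertical, log axis), with dotted lines at 2-fold. The 13 Ly6c-low markers outside the rule (blue) lie inside the dotted lines, 7 of 11 interferon-γ genes (purple) above the upper one, 3 of which reached 100 UMIs only through the SCD-labelled library, and 11 of 17 NRF2 targets (green) below the lower one, 1 of them only through the other.

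Of the identity genes of the subset none of the 13 counted markers outside the rule was past 2-fold, with a median log2 ratio of 0.08. As under 4% of all genes were past 2-fold, the counts of 0 or 1 in the next lists are near that background and are no result about them. Of 24 monocyte transcription factors, Spic of the rule among them, 23 were within 2-fold, and the median was 0.17. Nr4a1 was 0.37 (0.24 to 0.50) higher on the log2 scale in the SCD-labelled library, Klf2, which restrains endothelial and leukocyte activation, 0.41, and Cebpb, which these monocytes need to survive, 0.03. Pou2f2 was at 1459 and 1539 CPM and Spi1, encoding the myeloid factor PU.1, at 523 and 453 CPM. Maf, a factor of macrophages, was at 537 and 336 CPM, and in B cells at 278 and 123 CPM. Of 21 adhesion genes 0 were past 2-fold, with a median of 0.30. The list holds Adgre4, Ccr2, Ceacam1, S1pr5 and Spn of the rule, and the median of the other 16 was 0.29. The β2 chain gene Itgb2, which pairs with Itgal, was at 494 and 632 CPM, Itga4, the α4 integrin, at 930.1 and 1154, Itgam at 191 and 282, and the P-selectin ligand gene Selplg at 327 and 441. Of 16 Fc and related receptors 0 were past 2-fold, with a median of 0.07 and, without Cd300e and Treml4 of the rule, of 0.03 over 14 genes, and Fcer1g, their shared signalling chain, stood at 1534 and 1455 CPM. Among 19 survival and growth factor receptor genes, Bcl2l1 was lower, at 42.3 and 19.03 CPM, and no other was past 2-fold. Csf1r, the receptor for the monocyte growth factor, was at 751 and 896 CPM, Bcl2, which marks this long-lived subset, at 135 and 111, and Tnfrsf1b, the second TNF receptor, at 594 and 902.

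Some genes induced by interferon-γ stood higher in the SCD-labelled library. Of 11 counted genes 7 were at least 2-fold higher and 0 lower, with a median log2 ratio of 1.26 that ranged from 0.86 to 1.27 over the 14 settings in which it was computed. Igtp, Iigp1 and Cxcl9 passed the minimum only through the library where they were higher. Without them 4 of 8 genes were at least 2-fold higher, Gbp2, Gbp3, Irgm1 and Irgm2, with a median of 0.97. The median of these 8 genes was 0.41 in B cells and 1.35 in classical monocytes, and that of all 11 was 0.55 and 1.58. Of the 11 genes 5 were at 2 times or more the B cell level in the library where they were higher, and the list summed to 452 and 868 CPM in members and 491 and 726 CPM in B cells. Gbp2, a guanylate-binding protein that attacks vacuoles of pathogens (chr3:142620602-142638008, plus strand), was at 43.1 (32.1 to 56.7) and 139.8 (129.6 to 150.5) CPM and found in 11.4% and 30.7% of cells, and in B cells at 22.6 and 29.8 CPM. Irgm1 was at 40.6 and 98.1 CPM, Irgm2 at 45.7 and 98.5, Gbp3 at 29.6 and 73.4 and Igtp at 11.8 and 38.3, all immunity-related or guanylate-binding GTPases. Cd274, encoding PD-L1, was on the other side, at 124 and 98.3 CPM. Iigp1, another GTPase of this kind, was at 8.46 and 30.3 CPM, with 10 and 153 UMIs, and its log2 ratio of 1.78 became -0.17 when cells with 3 of the 9 markers were let in. The chemokine gene Cxcl9 was counted with 3 and 110 UMIs in single-lineage members but stood at 20.2 and 18.1 CPM in all members, and Nos2 had 0 UMIs in both libraries.

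Type I interferon genes were less uniform: of 17 counted, 5 were at least 2-fold higher and 1 lower. The median was 0.71, with 0.15 in B cells and 0.91 in classical monocytes. With the minimum met at the lower level, 4 of 16 were higher and 1 lower, with a median of 0.69. Ifi27l2a was at 271 and 429 CPM, Ifi204, a DNA sensor, at 144 and 222, and Irf7, which amplifies the response, at 40.6 and 67.0. Rsad2, encoding viperin, was lower, at 114 and 36.9 CPM, and lower in B cells as well, at 98.9 and 28.5. Of the antigen presentation genes most were within 2-fold. In the class II pathway 2 of 12 genes were at least 2-fold higher, H2-Ab1 and Cd40, and the median was 0.80, against 0.36 for the same genes in B cells and 1.42 in classical monocytes. H2-Ab1 was at 1029 (972 to 1089) and 2225 (2184 to 2266) CPM, Cd74, the invariant chain, at 2585 and 4864, H2-Aa at 1534 and 2758 and Ciita, the master regulator of the class, at 87.1 and 153. B cells, which make these genes themselves, stood at 1774 and 2738 CPM for H2-Ab1, and 1 of the 12 genes was at 2 times or more the B cell level. H2-Ab1 was found in 35.5% and 70.7% of single-lineage members and in 19.7% and 45.6% after each cell was thinned to 1000 UMIs. In the class I pathway 4 of 14 genes were at least 2-fold higher (median 0.54, with 0.36 in B cells and 0.69 in classical monocytes), the peptide transporter gene Tap1 at 81.2 and 183 CPM, the immunoproteasome gene Psmb9 at 85.4 and 183, the class I regulator Nlrc5 at 16.9 and 44.6 and H2-Q7 at 51.6 and 128, while B2m was at 4487 and 6105.

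Promoter sequence is shown for a pair of interferon-γ genes with matching letters, Igtp, past 2-fold, and Gbp5, at 22.8 and 41.8 CPM in single-lineage members, a log2 ratio of 0.85 and so under 2-fold. Windows from 250 bases before to 50 after each transcript start (RefSeq, GRCm38.p6) were searched on both strands for the letters TTCNNNGAA, the GAS element of interferon-γ promoters, whose letters read the same on both strands. They were found in 8.30% of 32851 windows, or in 9.55% of the 27025 genes that these belong to, and in the windows of Gbp5, Gbp7, Igtp and Irgm2, 4 of the 11 interferon-γ genes with an entry of 15 listed. As under 80% of the list had one, its share is not set against that of all genes. The 250 bases before the start are printed 5′ to 3′ on the plus strand, on which both genes lie, with GAS letters in capitals, and in Igtp also those of the element searched for further on.
Igtp, chr11:58199306-58199555: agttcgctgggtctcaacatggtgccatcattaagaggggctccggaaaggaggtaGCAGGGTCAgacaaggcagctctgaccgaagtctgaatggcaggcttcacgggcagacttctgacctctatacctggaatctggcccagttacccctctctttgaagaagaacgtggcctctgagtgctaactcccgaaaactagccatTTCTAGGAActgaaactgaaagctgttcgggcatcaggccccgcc
Gbp5, chr3:142496684-142496933: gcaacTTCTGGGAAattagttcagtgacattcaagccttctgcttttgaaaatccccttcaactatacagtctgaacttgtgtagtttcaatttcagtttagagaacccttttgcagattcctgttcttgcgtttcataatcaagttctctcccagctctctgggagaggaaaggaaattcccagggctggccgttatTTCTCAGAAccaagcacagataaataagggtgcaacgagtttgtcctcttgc
The match lies 45 bases before the start in Igtp, and 245 and 52 bases before it in Gbp5.

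NRF2 is a transcription factor activated by oxidants and heme. Of 17 counted targets 11 were at least 2-fold lower in the SCD-labelled library and 0 higher, with a median log2 ratio of -1.21 (from -1.24 to -0.89 over 14 settings), against -0.61 for the same genes in B cells and -0.28 in classical monocytes. With the minimum met at the lower level, 10 of 16 were lower, the gene left out being Srxn1, with a median of -1.13 in members, -0.61 in B cells and -0.29 in classical monocytes. In the library where each was higher, 15 of the 17 were at 2 times or more the B cell level. That limit does not separate a cell's own transcripts from free RNA. The 11 lower genes include Fth1, Ftl1 and Hmox1, the most abundant of the list. Hmox1 passed the limit, yet its ratio between the libraries was alike in B cells, as given with the heme genes below. Slc7a11, the cystine transporter that feeds glutathione synthesis (chr3:49892526-50443614, minus strand), was at 196 (172 to 223) CPM in the wild-type-labelled library and 16.5 (13.1 to 20.4) in the SCD-labelled library, and in B cells at 1.56 and 1.47 CPM. It was carried by 40 of 290 and 21 of 1089 cells, and 6 and 5 cells held 50% of its UMIs. Srxn1, which repairs peroxiredoxins, was at 52.4 and 11.5 CPM, with 3.12 and 2.20 in B cells. Prdx1, a peroxiredoxin, was at 1629 (1557 to 1704) and 670 (647 to 693) CPM, Txnrd1, thioredoxin reductase, at 238 and 88.6, and the glutathione synthesis genes Gclm and Gclc at 182 and 65.2 and at 151 and 65.4. Prdx1 was found in 86.6% and 81.5% of cells and, after thinning, in 64.0% and 39.9%, against 37.5% and 22.99% of all B cells. Its level was uneven, with 27 of 290 and 148 of 1089 cells holding 50% of its UMIs. Gsr, the glutathione reductase gene, was at 581 and 579 CPM, and the pentose phosphate genes Tkt and Taldo1 at 593 and 650.1 and at 773 and 639.6. Nfe2l2, which encodes NRF2, was at 326 and 320 CPM, and Bach1, encoding its heme-binding repressor, at 275 and 355.

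The heme and iron genes overlap this list. Of 17 counted, 8 were at least 2-fold lower and 1 higher, with a median of -0.99 (-1.16 to -0.91). Without Slc11a2, which passed only through the library where it was higher, 8 of 16 were lower and 1 higher, with a median of -1.10 in members and -1.12 in B cells. Hmox1, heme oxygenase, was at 4405 (4286 to 4526) and 1567 (1533 to 1602) CPM, and the ferritin genes Fth1 and Ftl1 at 7000.0 and 3015 and at 6891 and 2723. B cells, which hardly express Hmox1, stood at 2091 and 737 CPM, a log2 ratio of -1.50 beside -1.49 in the members. The list's median in B cells was -1.07, and 9 of the 17 genes were at 2 times or more the B cell level. The part of free RNA from macrophages in these values was not tested. Slc40a1, the iron exporter ferroportin, was at 1607 and 840 CPM and in B cells at 857 and 408. The heme exporter gene Flvcr1 was the higher one, at 27.1 and 68.0 CPM, and in B cells at 14.0 and 22.04.

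Some transcripts of red pulp macrophages were lower in the SCD-labelled library. Of 11 red pulp macrophage markers 4 were at least 2-fold lower and 0 higher in single-lineage members (median -0.80), with a median of -0.999 in B cells and -0.65 in classical monocytes. The rule limited 2 of them, Vcam1 and Spic. Of the other 9, 4 were lower, with a median of -0.94 in members and -1.07 in B cells. Hpgd, which breaks down prostaglandins, stood on the other side at 574 and 785 CPM. Cd5l was at 819 and 83.5 CPM and in B cells at 442 and 44.5, C1qa, of complement C1q, at 1123 and 491 and in B cells at 674 and 257. Summed over the list the markers stood at 7806 and 4255 CPM in members and 4167 and 1921 CPM in B cells, and Vcam1 was the most abundant. Without the 2 genes of the rule the sums were 5733 and 3030 CPM in members and 2929 and 1230 CPM in B cells. Of the 11 genes 3 were at 2 times or more the B cell level. Scavenging genes (5 of 17 lower, 0 higher, median -0.52), lysosomal genes (4 of 20 lower, 0 higher, median -0.48) and genes of lipid handling (4 of 16 lower, 1 higher, median -0.36) had medians under 0, with B cell medians of -1.01, -0.44 and -0.74. The higher gene of lipid handling, Alox5, passed only through the library where it was higher, and without it 4 of 15 were lower and 0 higher (median -0.46, and -0.73 in B cells). Among them Ctsd, the protease cathepsin D, was at 1766 and 366 CPM and in B cells at 882 and 160.5, and Cd36, which binds oxidized lipid, at 538 and 461. Psap, from which the saposins are cut, stood at 8319 and 6427 CPM, and Lyz2, lysozyme, at 2787 and 3575, against 526 and 120.1 CPM in B cells.

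**Figure D5:**
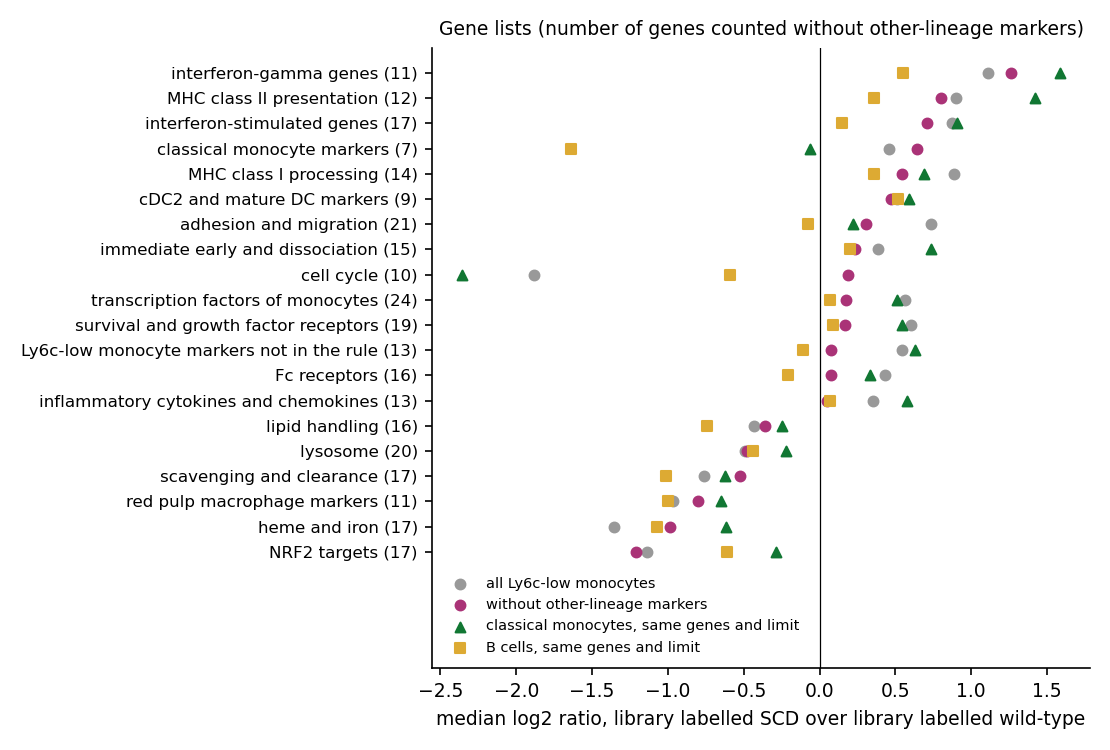
Median log2 ratio of the SCD-labelled library over the wild-type-labelled library (horizontal axis) for lists with at least 5 counted genes (rows, number in brackets), in all Ly6c-low monocytes (grey), single-lineage ones (purple), classical monocytes (green) and B cells (yellow). Interferon-γ genes lie at 1.26 and NRF2 targets at -1.21 in single-lineage members, or at 0.97 and -1.13 with the minimum met at the lower level, which is not drawn; for heme and iron genes and macrophage markers, B cells and members lie close together, and for cell cycle genes all members and single-lineage members lie far apart.

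Promoters of NRF2 targets were searched in the same way for TGACNNNGC, the antioxidant response element. The letters were in 12.4% of all windows, or in 14.0% of the 27025 genes, and in 7 of the 16 NRF2 target genes with an entry of 19 listed, G6pdx, Gclm, Me1, Pgd, Prdx1, Srxn1 and Txnrd1. They can overlap the AP-1 motif TGACTCA. Prdx1 and Gclm, both on the plus strand and both lower in the SCD-labelled library, are shown with the match, which in both is on the opposite strand, in capitals.
Prdx1, chr4:116685349-116685598: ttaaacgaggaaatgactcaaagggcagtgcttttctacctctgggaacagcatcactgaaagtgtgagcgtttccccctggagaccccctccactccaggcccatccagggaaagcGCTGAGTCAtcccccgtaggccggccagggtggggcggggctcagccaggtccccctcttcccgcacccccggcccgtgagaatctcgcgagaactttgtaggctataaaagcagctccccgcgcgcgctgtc
Gclm, chr3:122245307-122245556: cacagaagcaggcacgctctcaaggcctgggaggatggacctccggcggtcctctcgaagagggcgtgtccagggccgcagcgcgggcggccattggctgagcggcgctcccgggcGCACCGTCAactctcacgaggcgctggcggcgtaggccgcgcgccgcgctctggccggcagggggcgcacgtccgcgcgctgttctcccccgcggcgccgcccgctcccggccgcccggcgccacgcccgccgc
The matches begin 133 and 134 bases before the starts of Prdx1 and Gclm. The element AAAGGTCA, which NR4A1 binds as a monomer, was in 1.51% of all windows, or 1.70% of genes, and in none of those of the 9 marker genes of the rule and Nr4a1 or of the 16 leading genes that had an entry. A match of letters describes the window and does not show a site in use.

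The other lists held fewer differences. With the minimum met at the lower level, the counts of cytokine, immediate early and classical monocyte genes past 2-fold that follow were all 0, and the medians were 0.12 over 10, 0.25 over 14 and 0.60 over 5 genes. Of 13 counted cytokine and chemokine genes 0 were higher and 2 lower, Cxcl2 and Ccl3, with a median of 0.05, and Il1b was at 137 and 203 CPM, Tnf at 50.7 and 33.7 and Ccl6 at 465 and 537. Immediate early genes, which also rise while tissue is dissociated, had 0 higher and 1 lower of 15 (median 0.23), the lower being Egr1 at 54.1 and 7.73 CPM. Its 64 UMIs in the wild-type-labelled library lay in 14 of 290 cells, of which 3 held 50%. Of the 12 classical monocyte markers 7 were counted, 2 were higher and 0 lower (median 0.64), and the 2 are Fn1 and Ly6c2 of the rule. Without its genes 3 were left, none past 2-fold (median 0.64), and in all members 2 of 9 were higher and 2 lower (median 0.46). Of 9 markers of cDC2 and mature dendritic cells 0 were past 2-fold (median 0.47), the 6 that the rule did not limit had a median of 0.38, and the 7 that met the minimum at the lower level one of 0.27. No gene was past 2-fold of 3 markers of plasmacytoid cells (median 0.26), and 1 of 3 of cDC1, Batf3, at 21.1 and 47.8 CPM. Among markers of further lineages, with at least 100 UMIs Cd79b remained for B cells, at 27.9 and 28.2 CPM, Csf3r for neutrophils, at 66.0 and 105.5, and Slc4a1 and Alas2 for erythroid cells, of which Slc4a1 was lower, at 131 and 12.3 CPM and in B cells at 125 and 10.8, and passed only through the wild-type-labelled library. No T cell, NK cell or platelet marker reached 100 UMIs. Of 3 hemoglobin genes Hbb-bs and Hbb-bt, which passed only through the SCD-labelled library, were higher and Hba-a1 lower, at 775 and 272 CPM and in B cells at 696 and 487, and of 4 sex-linked genes 0 were past 2-fold (median -0.01).

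Single genes were named by the ends of the single-lineage comparison, among the genes at 2 times or more the B cell level in the library where they were higher. They were picked as the largest ratios and describe these libraries. Of the 15 lowest, 5 reached 100 UMIs only through the library where they were higher, Cxcl2, Clec4d, Ccl3, Srxn1 and Slco2b1, and so did 10 of the 15 highest, Stxbp6, Flt1, Slfn1, Celf4, Gm43982, Iigp1, Cxcl9, Lyz1, Ly6c2 and Fn1. Of the 15 lowest in the SCD-labelled library some were the innate receptor genes Clec4e, at 271 (243 to 303) and 56.7 (50.3 to 63.7) CPM, its neighbour Clec4d at 80.3 and 11.1, Clec4n at 495.5 and 134 and Fpr1 at 83.7 and 21.8, and others the chemokine genes Cxcl2 and Ccl3, the latter at 47.4 and 9.91 CPM. The 56 UMIs of Ccl3 in the wild-type-labelled library lay in 20 cells, of which 3 held 50%. Clec4e was found in 101 of 290 and 170 of 1089 cells, 34.8% and 15.6%, and 11 and 44 cells held 50% of its UMIs. For Clec4d these were 9 and 10 cells, and for Srxn1 6 and 11. Cxcl2, a neutrophil attractant, was at 122 and 5.75 CPM, but its 144 UMIs in the wild-type-labelled library came from 10 cells. The glutathione transferase gene Gstm1 was at 533 and 98.3 CPM and in B cells at 141 and 21.3, the metallothionein gene Mt1 at 135 and 37.1, and Kitl, Vat1, Slco2b1 and Tnip3 completed the group with Slc7a11, Srxn1 and Ctsd. The 15 highest held Ly6i, a gene of the Ly6 family whose reads may be shared with near-identical copies, at 25.4 (17.1 to 36.2) and 110.0 (101 to 120) CPM, Serpinb10 at 35.5 and 125, Stxbp6 at 11.0 and 48.4, Flt1, a VEGF receptor, at 9.30 and 45.4, and Adamdec1, a protease of macrophages, at 21.1 and 75.3. Adamdec1 was at 3.89 and 30.3 CPM in B cells, and the others at under 3 CPM in B cells of either library. Ly6i was found in 9.31% and 29.0% of single-lineage members. Gbp2, Iigp1 and Cxcl9, described above, Slfn1, Celf4 and Gm43982 were also among the 15.

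A further 3 of the highest genes were lysozyme and classical monocyte genes carried by few cells. Lyz1, which shares near-identical sequence with Lyz2 and is uncertain for that reason, had 5 UMIs in 1 cell and 216 UMIs in 37 cells. Ly6c2, limited by the rule, had 9 UMIs in 9 cells and 152 in 42, and 4 of the 42 cells held 50% of them. Fn1, fibronectin, also limited by the rule, had 18 UMIs in 13 cells and 272 in 75 cells, of which 5 held 50%. In all members both genes stood the other way, Fn1 at 104.8 and 55.0 CPM and Ly6c2 at 37.7 and 27.2 CPM, log2 ratios of -0.93 and -0.47. Against this, Ly6i was spread over 27 and 316 cells and Serpinb10 over 30 and 349.

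Several of the largest differences among all members were present in B cells too. Trim5 (chr7:104263386-104288094, minus strand) had no UMI in the wild-type-labelled library and stood at 39.9 CPM in the SCD-labelled library, at least 67.0-fold higher when 3 UMIs are allowed per library for a count of 0. Trim30d was at 0 and 28.7 CPM, at least 48.1-fold higher, Trim12a at 1.59 and 70.0 CPM and Trim34a at 3.18 and 35.3. These 4 antiviral genes lie between 104244457 and 104507849 on chromosome 7, next to the β-globin genes, and reads of such near-identical copies may be split between them. In B cells without other lineages Trim5 was at 0 and 94.0 CPM and Trim12a at 2.34 and 126. On the other side Pdzk1, a scaffold of membrane transporters, was at 26.6 CPM in the wild-type-labelled library and had no UMI in the other, at least 61.5-fold lower, and Me1 was at 23.4 and 0.576 CPM. In B cells they were at 14.0 and 0 and at 14.8 and 0.367 CPM. Saa3, an acute phase gene, was at 74.8 and 1.58 CPM in all members, and in single-lineage ones 57 of its 73 UMIs in the wild-type-labelled library came from 1 cell. Retnla was at 34.3 and 0.576 CPM in all members but had 0 and 4 UMIs in single-lineage ones, and Chp2 at 58.7 and 2.02, the latter in B cells at 38.2 and 0.735. Among the higher genes, Col6a3 was at 1.79 and 14.4 CPM, Klrk1, encoding the activating receptor NKG2D, at 3.18 and 14.8, Ifi205 at 5.75 and 28.9 and 3110021N24Rik at 3.77 and 16.7. Jchain and Ighv4-1, antibody genes of plasma cells, were at 0 and 145 and at 0 and 21.9 CPM in all members. The Y-linked gene Ddx3y was at 168 and 191 CPM, near equal in the libraries.

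Cells differed from one another most in genes of other lineages and of antigen presentation. After thinning to 1000 UMIs, the genes with the largest Fano factor, the variance over the mean, in all members were S100a9, S100a8, Igkc, Ngp and Hbb-bs, transcripts of neutrophils, B cells and erythroid cells. In single-lineage members they were Hbb-bs, Igkc and Hba-a1, then Cd74 with a Fano factor of 6.76 and 7.69, H2-Aa with 6.27 and 6.11, Fth1 with 6.25 and 4.05, H2-Ab1 with 4.89 and 4.87, Cxcl2, H2-Eb1 and Prdx1 with 5.19 and 3.18. Counting alone gives a factor of 1, and that of Hbb-bs was 0.993 in the wild-type-labelled library and 30.9 in the other. Class II genes were carried unevenly: 19 of the 290 single-lineage members labelled wild-type held 50% of the Cd74 UMIs, and 98 of the 1089 labelled SCD.

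Clustering of the members on their own gave 10 groups, of which 7 came to at least 80% from 1 library, so that a kind of cell and a difference between libraries cannot be told apart in these. The groups are described by their leading genes. Group 3 (31 and 457 cells), led by Scnn1a, Tppp3 and Gjb2, had the highest Ace, Nr4a1, Itgal and Fcgr4, at 1514, 879, 2674 and 791 CPM, and the H2-Ab1 level was 267 CPM. Group 4 (35 and 228 cells), led by Ifi205, Ccr2 and Slfn genes, kept Ace at 1302 CPM and Nr4a1 at 599.5 but had Fcgr4 at 143 and H2-Ab1 at 2507 CPM. Group 10 (6 and 265 cells), led by Prg4, Adamdec1, Ubd and Gbp2, had Ace at 1049, Fcgr4 at 560.4 and C1qa at 1055 CPM. Of the cells of these 3 groups 95.9%, 91.6% and 94.5% were single-lineage. Group 1 (279 and 29 cells, 68.2% single-lineage), led by Cxcl2, Slc7a11, Saa3, Clec4d and Clec4e, had Ace at 664 and Nr4a1 at 512 CPM and held 38.0% of the members of the wild-type-labelled library and 2.17% of those of the SCD-labelled library. Group 2 (94 and 179 cells, 70.7% single-lineage) had the most H2-Ab1, at 4554 CPM, and less Ace and Nr4a1, at 293 and 165 CPM. Mreg and Clec9a, genes of dendritic cells, were among its leading ones. In the remaining 5 groups 0% to 5.69% of cells were single-lineage. These groups were led by globin genes (group 5), erythroid genes such as Klf1 and Gata1 (group 6), Retnla, Oas1e and Slfn14 (group 7), neutrophil granule genes (group 8) and antibody genes (group 9). Groups 6, 7 and 8 held 84, 111 and 18 cells of the wild-type-labelled library and 6, 10 and 1 of the other. In these 3 groups Nr4a1 was at 84.2, 234 and 23.3 CPM, Itgal at 292, 590 and 109 and Fcgr4 at 117, 229 and 58.4. The levels summed over all members therefore do not describe every group.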

How the data were processed

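Spleen cells of 1 mouse per label were profiled by droplet 3′ RNA sequencing. The matrices the authors deposited hold UMI counts that were not normalized, made with Cell Ranger 4.0.0 on GRCm38.p6 per the submitters' processing notes (the matrix header gives 3.1.0). These counts were analysed in Python 3.11.15 with numpy 2.4.6, scipy 1.17.1, pandas 2.3.3, scanpy 1.11.5 and python-igraph 0.11.9, in scripts tested on simulated data.

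The members and all 30 gene lists were chosen with earlier results of these data known. UMIs were summed over the cells of a library and given as CPM with exact Poisson intervals, and shares with exact binomial intervals. Log2 ratios used a prior of 0.5 UMI, and a gene was counted with at least 100 UMIs in both libraries together. Classical monocytes, intermediate cells, dendritic cells and B cells also lay under 0.5% Vcam1 and Spic, the first 2 with at most 1 dendritic cell gene, and dendritic cells with at most 3 of the 9 markers. Doublets were not removed, and an alternative left out the 10% of cells with the highest Scrublet score.

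Genes were named by fixed rules: those of the rule and the markers, the 20 leading genes, the 10 largest and 10 smallest log2 ratios, the same among genes at 2 times or more the B cell level where higher, up to 6 abundant genes per list, the 15 largest Fano factors, and hemoglobin and sex-linked genes. The comparison of single-lineage members and its 15 genes each way were chosen after values were seen, as were the other genes named. Gene positions and promoters are of GRCm38, the latter from RefSeq. Some items are not reported here.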

Additional observations from a re-analysis of the deposited data

How the results depend on the processing

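No paired analysis was possible because each label has 1 library. The log2 ratio of the shares of Ly6c-low monocytes, SCD over wild-type, was 1.53 and stayed above 0 in every setting computed: it was 1.11 with at least 3 of the 9 markers, 1.77 with at least 5, 1.32 with mitochondrial transcripts under 10%, 2.05 with Vcam1 and Spic under 0.25%, 1.66 without the highest Scrublet scores, 2.09 with the rule applied to cells thinned to 2000 UMIs, which left out 4705 of 19419 and 1394 of 12280 kept barcodes as too shallow, and 2.57 for single-lineage members. It was 1.68 when the same limit was put on the denominator and 1.04 with macrophages left out of it, both chosen after seeing the data. The 339 genes higher in the SCD-labelled library became 671 with at least 3 markers, 214 without the highest Scrublet scores and 146 in single-lineage members, in which the 683 lower genes became 128. The 43 enriched genes became 26 with at least 3 markers and 68 with a mean over cells. The alternatives for single-lineage members were chosen after seeing the data: the 146 higher genes became 294 at a minimum of 50 UMIs 80 at 200 and 66 with the minimum met at the level of the lower library, and the 128 lower ones 201 at 50 and 48 when no marker of another lineage was allowed. Among the log2 values followed over the alternatives, 2 past 2-fold turned direction. The cell cycle median of all members (-1.89) became 0.19 in single-lineage members. The log2 ratio of Iigp1 in the latter (1.78) became -0.17 with at least 3 markers. The cause was not tested. Outside these 2, further values stood in opposite directions between all and single-lineage members: Fn1 (-0.93 and 1.79), Ly6c2 (-0.47 and 1.91) and Chil3 (-1.70 and 0.60). So did the neutrophil marker median (-3.60 over 5 genes and 0.67 over 1). The members per 100 dendritic cells and per 100 B cells also changed direction, by small amounts and with no interval computed. Of the 1152 log2 values of genes and list medians under alternatives 1070 lay within 0.5 of the main value, 80 lay further off and 2 turned. Of the 1070, 8 medians of 5 lists changed sign. Lists without the genes of the rule were added after seeing the data. Counts within 1.5 times the main count were taken as alike. With 1 mouse per label, animal, capture and label cannot be told apart, and genes under 100 UMIs were not compared.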
